A study of Mus musculus with 12 samples.

Results

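The genes described here are the mouse beta-globins Hbb-y, Hbb-bh1, Hbb-bs and Hbb-bt, the haem synthesis gene Alas2, and the erythroid identity genes Gata1, Klf1 and Hemgn, measured by RNA sequencing in embryonic lung. They were chosen by symbol from a list of 9. Of these, 8 matched a gene identifier among the 31078 genes used, and all 8 had enough counts to be tested. Ahsp, which encodes a chaperone of alpha-globin, is not analysed here, and neither are the alpha-globin genes.

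Lungs came from C57BL/6 mouse embryos at E12.5, obtained by natural matings of carriers of an Intu knockout allele. Intu encodes a protein of the CPLANE complex, which is needed to build primary cilia. There were 4 groups of 3 libraries: wild-type left lung, wild-type right lung, Intu-knockout left lung and Intu-knockout right lung, and the embryos of all groups were otherwise untreated. The labels name no tissue restriction of the knockout. They do not say what part of the gene it removes, or whether each library is a different embryo, so the p-values speak only of the variation among these libraries, which could be technical. The study compared mutant with wild type and left with right.

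Red cells of the mouse embryo come in waves. Primitive erythroid cells form in the yolk sac, enter the circulation before the lung buds grow, and carry embryonic haemoglobins, whose beta-like chains are encoded by Hbb-y and Hbb-bh1. Definitive erythroid cells are made later, at this stage in the fetal liver, and use the adult beta-globin genes, which in C57BL/6 mice are Hbb-bs and Hbb-bt. Gata1 is the transcription factor that drives erythroid differentiation, Klf1 activates beta-globin genes through CACCC elements, Hemgn encodes a nuclear protein of erythroid cells, and Alas2 encodes the first enzyme of haem synthesis in red cells. The embryonic lung is not known as a site of red cell formation, and its vessels hold circulating blood when it is dissected. In bulk RNA, fewer red cells and less RNA per red cell cannot be told apart.

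The 4 beta-globin genes lie beside each other on chromosome 7 of GRCm38, all on the minus strand: Hbb-y at 103851749 to 103853216, Hbb-bh1 at 103841637 to 103843164, Hbb-bs at 103826534 to 103828096 and Hbb-bt at 103812524 to 103813996. Their first 90 coding bases, read from GRCm38, are shown because they decide how far reads can be told apart between the genes. Capitals mark bases that differ from Hbb-y, 30 in Hbb-bh1 and 26 each in Hbb-bs and Hbb-bt.
Hbb-y: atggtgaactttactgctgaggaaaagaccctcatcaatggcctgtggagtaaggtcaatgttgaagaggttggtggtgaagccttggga
Hbb-bh1: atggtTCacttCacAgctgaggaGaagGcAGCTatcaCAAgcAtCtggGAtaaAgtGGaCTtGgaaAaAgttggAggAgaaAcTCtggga
Hbb-bs: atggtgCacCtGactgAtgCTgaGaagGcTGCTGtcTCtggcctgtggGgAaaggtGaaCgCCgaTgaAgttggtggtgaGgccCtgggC
Hbb-bt: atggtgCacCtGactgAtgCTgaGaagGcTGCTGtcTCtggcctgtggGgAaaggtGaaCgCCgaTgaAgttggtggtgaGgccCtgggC
The stretches start at position 103853152 in Hbb-y, 103843110 in Hbb-bh1, 103827875 in Hbb-bs and 103813869 in Hbb-bt and run towards lower positions. Each coding sequence has 444 bases in 3 exons and 147 codons before the stop. Over those 444 bases Hbb-y was identical to Hbb-bh1 at 76.4%, to Hbb-bs at 74.3% and to Hbb-bt at 74.1% of positions, whereas Hbb-bs and Hbb-bt differed at 1 base. Of all 100-base windows of the Hbb-bt transcript, 54.8% also occur in Hbb-bs, while no window is shared between any other pair. The split of reads between Hbb-bs and Hbb-bt is therefore uncertain, since how reads that fit both were counted is not given in the sources used here. Hbb-y and Hbb-bh1 share no such window with the adult genes. The sum of Hbb-bs and Hbb-bt also depends on that treatment, since it would be too low if reads that fit both genes were dropped and too high if they were counted in both.

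Upstream windows from 250 to 51 bases before the RefSeq start (GRCm38.p6), matched by symbol for 7 of the 8 genes (all but Hbb-bh1), were searched for the letters that GATA factors and Klf1 are known to bind, AGATAA or its reverse TTATCT, and CACCC or its reverse GGGTG. The windows of Hbb-y, the most abundant of the 8 genes, and Alas2, the haem enzyme that moved with it, are shown. Neither overlaps its own annotated gene, and overlap with other genes was not checked. Capitals mark the match.
Hbb-y, chr7:103853258-103853457, minus strand: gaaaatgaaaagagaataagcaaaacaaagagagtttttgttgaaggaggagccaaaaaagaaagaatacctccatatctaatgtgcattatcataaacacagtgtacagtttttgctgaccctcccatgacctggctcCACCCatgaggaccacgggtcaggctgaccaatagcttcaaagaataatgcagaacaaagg
Alas2, chrX:150547167-150547366, plus strand: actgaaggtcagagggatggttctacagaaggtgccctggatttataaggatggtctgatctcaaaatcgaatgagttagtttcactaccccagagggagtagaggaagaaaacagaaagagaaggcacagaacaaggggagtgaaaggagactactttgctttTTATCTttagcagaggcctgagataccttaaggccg
Hbb-y held 1 CACCC match and no GATA match, and Alas2 held 1 GATA match and no CACCC match. Hbb-bs held 1 of each, Hbb-bt held 3 CACCC matches, Gata1 and Klf1 held 1 CACCC match each, and Hemgn held neither. Unlike the windows shown, those of Hbb-bs, Hbb-bt, Gata1, Klf1 and Hemgn overlap their own annotated gene. The windows of Gata1 and Hemgn lie wholly inside it. Among 32851 promoter windows of the same length, 8.42% held a GATA match and 44.4% a CACCC match. These are matches of letters, not sites shown to be used.

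The libraries held between 10290103 and 10753386 counts in the genes used. Foxa2 and Tbx5, from the list of lung epithelium and mesenchyme markers, stood at 95.1 to 111 and 362 to 490 counts-per-million (CPM) in every library. These 2 genes alone do not identify lung. Intu itself stood at 28.2 to 34.0 CPM in wild-type and at 26.2 to 31.4 CPM in knockout libraries and was not called in any comparison, so its level over all exons does not check the labels, and "knockout" here means labelled so. In the knockout, both libraries numbered 1 and both numbered 2 stood apart from the rest in their globin mix, and results without them are given. The knockout left library 1 also stood apart in the hepatocyte genes Alb (40.3 CPM against 0.0933 to 2.70 in the other 11 libraries) and Afp (45.7 against 3.26 to 8.40).

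Hbb-y was by far the most abundant of the 8 genes. Per kilobase of exon, its level averaged 3898 CPM over the 12 libraries, against 384 for Hbb-bs, 103.8 for Hbb-bh1, 103.2 for Hbb-bt, 15.8 for Alas2, 1.76 for Klf1, 0.745 for Gata1 and 0.541 for Hemgn. In that order the ranges over libraries overlapped between Hbb-bh1 and Hbb-bt and among Klf1, Gata1 and Hemgn, and not between the other neighbours. The 4 beta-globins together took 0.217% to 0.385% of a library's counts in the genes used, which cover part of the genome. Hbb-y alone took 81.3% to 87.2% of the beta-globin counts. The transcription factor genes were read thinly, with 5 to 36 counts per library for Gata1 (chromosome X, 7959260 to 7978071), 12 to 49 for Klf1 (chromosome 8, 84901928 to 84905295) and 2 to 32 for Hemgn (chromosome 4, 46393989 to 46413506), which limits what can be said of them.

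Left and right wild-type lungs were compared first. Hbb-y stood at 2660, 2996 and 2585 CPM in left libraries 1, 2 and 3 and at 1957, 2104 and 1872 CPM in the right ones. Every left library was above every right library, and the left library of each number was 1.36 to 1.42 times the right one. Hbb-bh1 followed the same pattern, with 56.1, 79.6 and 64.7 CPM in left against 39.4, 47.7 and 42.5 CPM in right libraries, again without overlap. The adult gene Hbb-bs stood at 326, 311 and 256 CPM against 224, 217 and 221. The groups did not overlap here either, and the right libraries varied little (221 ± 3.57 CPM, SD, n = 3). For Hbb-bt the left values were 84.2, 90.9 and 60.1 CPM and the right values 62.1, 57.7 and 54.4. These overlapped, because left library 3 was below right library 1. In all, 3 of the 8 genes had every left library above every right one, against a background of 4.32% of the 9519 genes tested.

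Alas2 (chromosome X, 150547375 to 150570638) read 41.9, 48.9 and 36.5 CPM in the left libraries of wild type against 27.0, 36.9 and 28.1 CPM in the right ones. The ranges overlapped slightly, since left library 3 was just under right library 2, yet each left library exceeded the right one of its number by 1.30 to 1.55 times. Gata1 was also higher on the left within each number, at 2.88, 3.40 and 1.68 CPM against 2.29, 1.68 and 0.957. Klf1 differed little, at 2.59, 3.30 and 2.34 CPM against 2.39, 2.99 and 2.39. Hemgn was higher on the left in numbers 2 and 3 and lower in number 1 (0.865, 3.02 and 1.22 CPM against 1.53, 1.31 and 0.574).

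**Figure D1:**
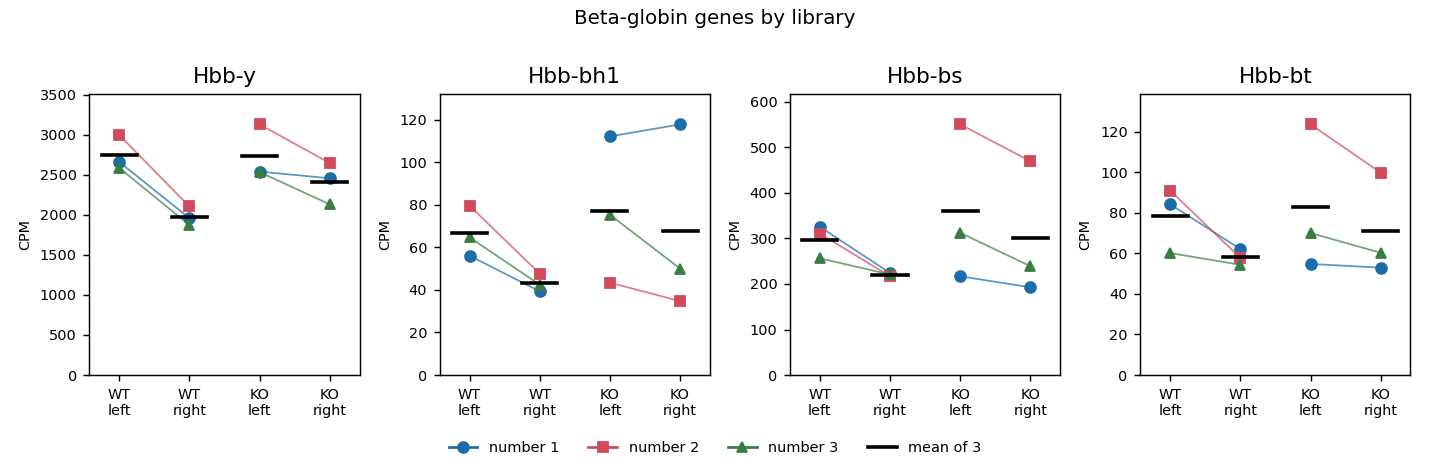
Normalised level of the 4 beta-globin genes (CPM, linear axes from 0) in each of the 12 libraries, by genotype (WT, wild type; KO, Intu knockout) and side. Points are libraries, thin lines join left and right libraries with the same number, and black bars are means of 3. Wild-type left libraries sit above right ones for Hbb-y, Hbb-bh1 and Hbb-bs, and the knockout libraries numbered 1 and 2 lie at opposite ends for Hbb-bh1 and Hbb-bs.

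Without regard to the numbers, edgeR's quasi-likelihood test over all 12 libraries called none of the 8 genes between wild-type sides at an adjusted p (Benjamini-Hochberg) of 0.05, where 0.0105% of all genes were called. Hbb-y came closest, with a log2 fold change of 0.47 (SE 0.09, adjusted p = 0.242). Unadjusted p-values were under 0.05 for Hbb-y and Alas2, and DESeq2 called Hbb-y (adjusted p = 0.000993) among 11 genes in all. All 8 genes leaned to the left, with a median log2 fold change of 0.47 against 0.00 over all genes tested.

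With each same-numbered left and right pair as a block, 5 of the 8 genes were higher on the left in wild type, against a background of 0.273% of genes called in that direction. On the log2 scale Hbb-y rose by 0.47 (SE 0.05, adjusted p = 3.03e-06), Hbb-bh1 by 0.62 (SE 0.09, 0.000264), Hbb-bs by 0.42 (SE 0.06, 0.000171), Hbb-bt by 0.42 (SE 0.08, 0.00398) and Alas2 by 0.47 (SE 0.08, 0.00182). The 2 embryonic globins, the 2 adult globins and the haem enzyme thus differed by similar amounts, between 1.34-fold and 1.54-fold. Gata1 (0.69, SE 0.29, adjusted p = 0.644), Klf1 (0.08, SE 0.23, 0.987) and Hemgn (0.56, SE 0.40, 0.926) did not pass. That the numbers pair the lungs is a hint from the data and not stated by the labels. A limma-voom fit that treats pairs as a random effect called 1 of the 8, Hbb-y (adjusted p = 0.00827), among 13 genes in all. Without wild-type pair 1, the blocked fit still called Hbb-y, Hbb-bh1 and Hbb-bs but lost Hbb-bt (adjusted p = 0.0658) and Alas2 (0.0817), and without pair 2 it lost Hbb-bt (0.268). Leaving out wild-type pair 3 or any knockout pair left the count at 5.

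Left and right knockout lungs were compared next. Hbb-y stood at 2539, 3129 and 2533 CPM in left libraries 1, 2 and 3 and at 2456, 2646 and 2130 CPM in the right ones, so the groups overlapped while each pair was higher on the left, by 1.03 to 1.19 times. Hbb-bs stood at 217, 551 and 312 CPM against 193, 470 and 239, and Hbb-bt at 54.8, 124 and 70.0 against 52.9, 99.8 and 60.3. The spread between numbers was wider than the gap between sides for both adult genes, and none of the 8 genes had every left library above every right one, against a background of 3.97%. Hbb-bh1 was higher on the left in pairs 2 and 3 (43.4 and 75.4 CPM against 34.8 and 50.04) and slightly lower in pair 1 (112 against 118). Alas2 stood at 40.4, 44.3 and 41.6 CPM against 35.2, 41.8 and 32.4, higher on the left in each pair.

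The knockout sides gave no call among the 8 genes without pairs, with edgeR or DESeq2, and none had an unadjusted p under 0.05. The share of all genes called was 0%. With pairs as blocks, Hbb-bs alone passed (log2 fold change 0.26, SE 0.06, adjusted p = 0.0408), against 0.263% of all genes called higher on the left. With limma-voom and the pair as a random effect, none of the 8 genes was called there. The Hbb-bs call of the blocked fit was lost without knockout pair 2 or 3, or without wild-type pair 2 (adjusted p = 0.0559). Without knockout pair 1 Hbb-bs still passed (adjusted p = 0.0484), and Hbb-bh1 passed beside it (0.47, adjusted p = 0.0197). Knockout pair 1 is the pair whose left library carried the high Alb and Afp counts. The Hbb-bs call at 0.0408 was made with that library in the fit, and the calls without pair 1 were not. Gata1 was at 2.25, 0.479 and 2.31 CPM against 1.46, 1.06 and 1.35, Klf1 at 4.79, 2.78 and 2.60 against 3.52, 1.63 and 1.16, and Hemgn at 2.84, 0.192 and 1.35 against 2.44, 0.576 and 0.386. Klf1 was higher on the left in all 3 pairs (log2 fold change 0.71, SE 0.24, adjusted p = 0.319), and the other 2 genes in pairs 1 and 3.

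**Figure D2:**
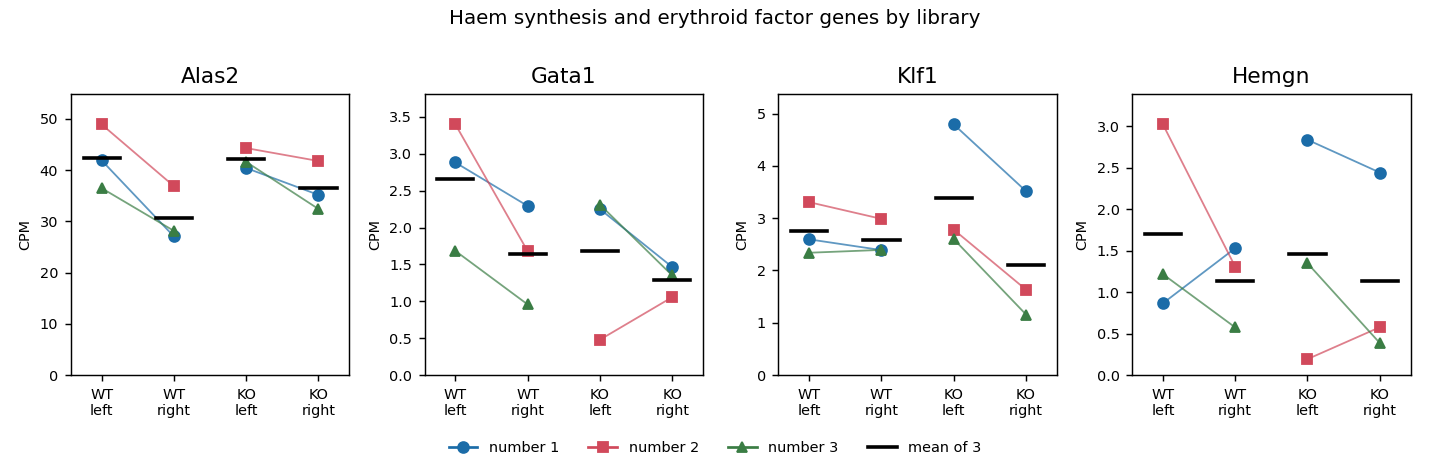
Normalised level of Alas2, Gata1, Klf1 and Hemgn (CPM, linear axes from 0) in each of the 12 libraries, drawn as for the globins. Alas2 is higher on the left in all 6 joined pairs. The other genes lie under 5 CPM.

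Over both genotypes, Hbb-y, Hbb-bs, Hbb-bt and Alas2 were higher on the left in 6 of 6 pairs, Hbb-bh1, Gata1 and Klf1 in 5 and Hemgn in 4. The paired fit averaged over genotypes, added after the data were seen, called 5 of the 8 genes higher on the left against a background of 0.662%. Log2 fold changes were 0.33 for Hbb-y (SE 0.04, adjusted p = 4.09e-06), 0.44 for Hbb-bh1 (SE 0.06, 0.000168), 0.34 for Hbb-bs (SE 0.04, 2.02e-05), 0.31 for Hbb-bt (SE 0.05, 0.00153) and 0.34 for Alas2 (SE 0.06, 0.000886). The count stayed at 5 when any of the 6 pairs was left out. Of the counts in the genes used, all beta-globins together took 0.321% ± 0.0371 in left and 0.258% ± 0.0403 in right libraries (SD, n = 6 each). This was 1.25-fold more on the left, in 6 of 6 pairs (exact permutation test over the signs of the pairs, two-sided p = 0.0312, the smallest it can give). Within wild type the fold was 1.38 and within the knockout 1.13. With 3 pairs each, the exact test there cannot go below 0.25, and gave that value in both.

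The log2 fold change between sides was nearer 0 in the knockout than in wild type for 7 of the 8 genes, Klf1 being the exception. The test of that difference, the interaction of genotype and side, called none of them with edgeR (unadjusted p under 0.05 for Hbb-y only) or DESeq2, and 0% of all genes. For Hbb-y the interaction was -0.29 on the log2 scale (SE 0.13, adjusted p = 1). With pairs it was -0.29 (SE 0.07, unadjusted p = 0.000427, adjusted p = 0.406), again none of the 8 was called, against 0.021% of all genes, and unadjusted p-values were under 0.05 for Hbb-y, Hbb-bh1 and Alas2. A difference in laterality of the globins between genotypes was thus not shown.

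**Figure D3:**
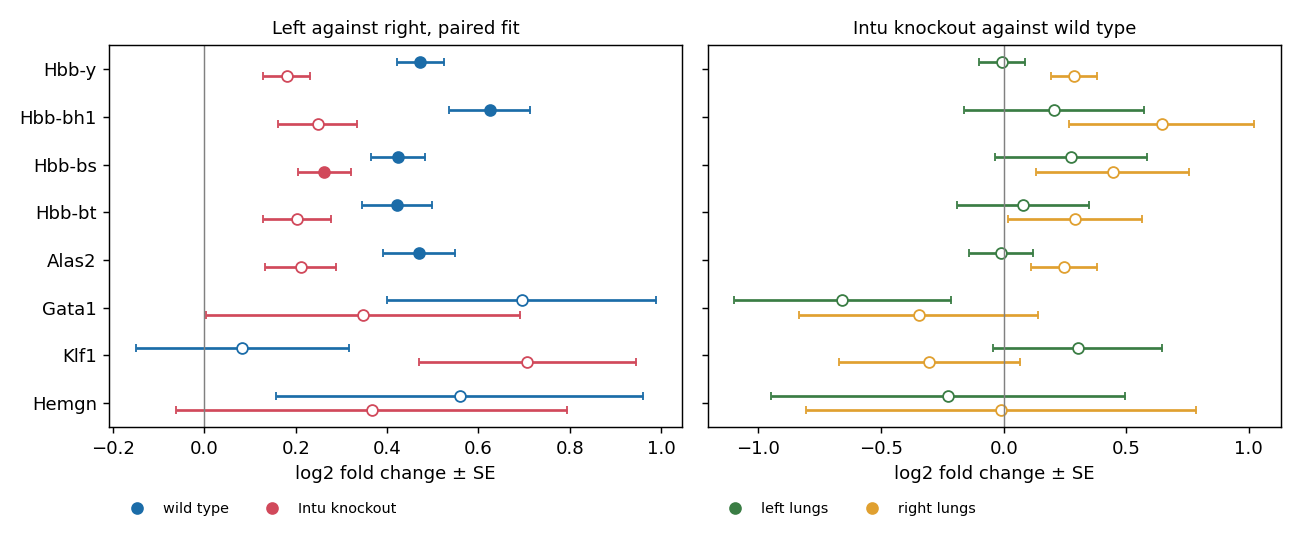
Log2 fold changes with standard errors of the 8 genes, for left against right with pairs as blocks in each genotype (left panel) and for Intu knockout against wild type in each side (right panel). Filled points passed an adjusted p of 0.05 and open points did not. In wild type the 4 globins and Alas2 lie between 0.42 and 0.62 and are filled, in the knockout only Hbb-bs is filled, and no point is filled in the right panel.

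Intu-knockout and wild-type lungs were then compared within each side. In left lungs the genotypes overlapped for all 8 genes, where 7.02% of all genes had every knockout library above and 8.26% every one below wild type. Hbb-y averaged 2734 ± 342 CPM in the knockout and 2747 ± 219 CPM in wild type (SD, n = 3), a log2 fold change of -0.01 (SE 0.09, adjusted p = 0.992). Hbb-bh1 averaged 77.0 ± 34.4 against 66.8 ± 11.9 CPM, Hbb-bs 360.0 ± 172 against 298 ± 36.4, Hbb-bt 82.8 ± 36.1 against 78.4 ± 16.2, and Alas2 42.1 ± 1.99 against 42.4 ± 6.24. The means of the globins differed by less than the spread among knockout libraries. Gata1 was at 1.68 ± 1.04 against 2.66 ± 0.880 CPM (log2 fold change -0.66, SE 0.44, adjusted p = 0.686), Klf1 at 3.39 ± 1.22 against 2.75 ± 0.501, and Hemgn at 1.46 ± 1.33 against 1.70 ± 1.16. Without knockout left library 1 the log2 fold change of Hbb-bh1 went from 0.20 to -0.17, and without knockout left library 2 that of Hbb-bs went from 0.28 to -0.17. None of the 8 genes was called by edgeR or DESeq2, none had an unadjusted p under 0.05, and 1.18% of all genes were called.

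In right lungs Hbb-y was higher in every knockout library (2456, 2646 and 2130 CPM) than in every wild-type library (1957, 2104 and 1872 CPM), although the lowest knockout and the highest wild-type library were close. Its log2 fold change was 0.29 (SE 0.09, unadjusted p = 0.00935), which did not pass adjustment (adjusted p = 0.192). Among the 8 genes 1 had every knockout library above every wild-type library, against a background of 8.47% of all genes. Hbb-bh1 had a larger fold change (0.64) with a larger error (SE 0.38, adjusted p = 0.505), since knockout library 1 stood at 118 CPM and knockout library 2, at 34.8 CPM, was below all 3 wild-type libraries. Hbb-bs (0.45, SE 0.31, adjusted p = 0.594), Hbb-bt (0.29, SE 0.27, 0.727) and Alas2 (0.25, SE 0.13, 0.463) did not pass either. Without knockout right library 1 the value for Hbb-bh1 was -0.025, and without knockout right library 2 those for Hbb-bs and Hbb-bt were -0.032 and -0.037, so 1 library decided each of these directions. Of the 8 genes, none was called in right lungs by edgeR or DESeq2, where 1.51% of all genes were called. The wild-type right libraries enter both this comparison and that of the wild-type sides.

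Adding up both sides of a number gave 3 values a genotype. Hbb-y was 0.12 higher in the knockout on the log2 scale (SE 0.08, adjusted p = 0.587), Hbb-bh1 0.39 (SE 0.32, 0.660), Hbb-bs 0.35 (SE 0.27, 0.643), Hbb-bt 0.17 (SE 0.24, 0.814) and Alas2 0.10 (SE 0.11, 0.757). Gata1 stood at -0.53 (SE 0.37, 0.600), Klf1 at 0.04 (SE 0.30, 0.973) and Hemgn at -0.14 (SE 0.60, 0.954). None was called by edgeR, DESeq2 or limma-voom, or had an unadjusted p under 0.05, and 1.38% of all genes were called. The signs went both ways, 6 positive and 2 negative, with a median of 0.11 against 0.00 over all genes.

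The mix of embryonic and adult globins was examined as a ratio within each library, which scaling does not touch. The adult genes Hbb-bs and Hbb-bt made up 13.1%, 11.5% and 10.7% of beta-globin counts in wild-type left libraries 1, 2 and 3 and 12.5%, 11.3% and 12.6% in the right ones. Knockout libraries gave 9.30%, 17.5% and 12.8% on the left and 8.71%, 17.5% and 12.1% on the right. The wild-type libraries lay close together, while the knockout libraries numbered 1 fell below all of them and those numbered 2 above all of them, on both sides. Exact binomial 95% intervals, which cover counting error only, were narrow (8.39% to 9.05% for knockout right library 1 and 17.2% to 17.9% for knockout left library 2, the latter from 40129 counts). The spread between numbers therefore went beyond counting error. If reads that fit both adult genes were dropped, the adult share is understated in every library.

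The group means of this share were also compared. The knockout was higher by 1.43 percentage points in left lungs (13.2% ± 4.13 against 11.8% ± 1.24, exact permutation test, two-sided, p = 0.8) and by 0.621 points in right lungs (12.8% ± 4.45 against 12.2% ± 0.711, exact p = 0.9). With the sides summed the difference was 1.07 points (exact p = 0.8). Left and right differed by -0.374 points in wild type and by 0.433 points in the knockout (exact p = 0.7 each). With 3 against 3 the smallest possible p is 0.1. Within pairs, a test added after seeing the data, the left library had the higher share in 3 of 3 knockout pairs (exact sign-flip permutation test, two-sided, p = 0.25, the smallest that 3 pairs allow), by 0.0046 to 0.714 points. In wild type it was higher in 2 of 3 pairs (exact p = 1.0), and over both genotypes in 5 of 6 (exact p = 0.969). Without the knockout libraries numbered 2, the knockout was lower by 0.733 points on the left and 1.76 points on the right, so the direction rested on that number.

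The ratio of Hbb-bs to Hbb-bh1, an adult and an embryonic gene, varied more widely. It was 3.90 to 5.80 in the 6 wild-type libraries, 4.15 and 4.78 in knockout libraries 3 (left and right), 1.93 and 1.64 in knockout libraries 1, and 12.7 and 13.5 in knockout libraries 2. Left and right knockout libraries of the same number lay close together, and the numbers lay far apart. By comparison, the ratio of Hbb-bs to Hbb-bt, the near-identical adult pair, stayed between 3.42 and 4.71, and Alas2 counts per 1000 beta-globin counts between 11.5 and 15.2. Knockout libraries 1 and 2, at the ends of the globin mix, gave 11.5 to 13.8 of these and so lay within the range of wild type or just under it.

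**Figure D4:**
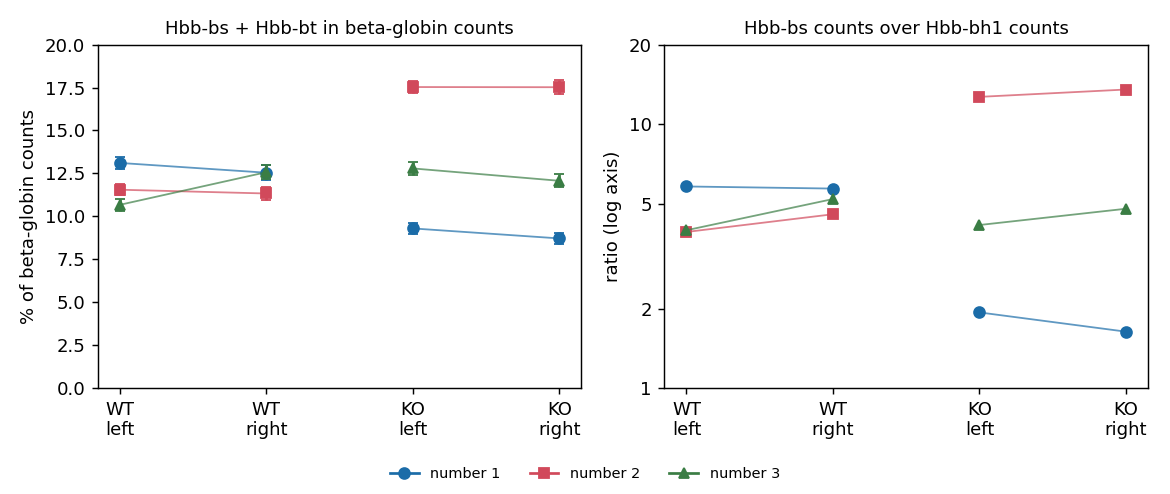
Share of Hbb-bs and Hbb-bt in beta-globin counts (left panel, percent, linear axis from 0, bars are exact binomial 95% intervals) and ratio of Hbb-bs to Hbb-bh1 counts (right panel, log axis) in each library, with lines joining same-numbered left and right libraries. Wild-type libraries lie at 10.7% to 13.1%, knockout libraries 1 at 9.30% and 8.71% and knockout libraries 2 at 17.5% on both sides.

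Levels of the erythroid factor genes were set beside those of the globins. Across the 12 libraries, after each group's mean was removed, log2 levels of Hbb-bh1 correlated with those of Hemgn at r = 0.85 and of Klf1 at 0.80, and with Hbb-bs at -0.88. Hbb-bs correlated with Hbb-bt at 0.96 and with Hemgn at -0.68. Hbb-y correlated with Alas2 at 0.76, and with Hbb-bh1 at -0.29. These are descriptions over 12 libraries that share scaling and come in pairs, and they lean on the knockout libraries 1 and 2. Knockout libraries 2, low in Hbb-bh1, also held the lowest Hemgn level of all on the left (0.192 CPM, from 2 counts), and knockout libraries 1 the highest Klf1 levels (4.79 and 3.52 CPM).

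Epb42 and Car2, picked out after their values were seen, also differed between knockout libraries 1 and 2. Epb42, a red cell membrane protein that binds the anion exchanger, stood at 6.94 and 7.81 CPM in knockout libraries 1, at 2.59 and 2.69 in knockout libraries 2 and at 4.68 to 8.69 in wild type. Car2, a carbonic anhydrase that many cell types make, went the other way, with 209 and 227 CPM in knockout libraries 1 and 358 and 324 CPM in knockout libraries 2, against 217 to 249 in wild type. Endothelial markers, summed over 8 genes, were also highest in knockout libraries 2, at 1509 CPM (left) and 1421 CPM (right), with 1109 to 1246 CPM elsewhere. Their part in the globin mix was not tested.

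A wider set of 73 erythroid genes was read for the same comparisons. Of these, 40 were in the genes used and 37 were tested. Between genotypes none was called on either side or in the sum, with 3 on the left, 5 on the right and 5 in the sum at an unadjusted p under 0.05. Of the 13 red cell membrane and surface genes, 11 were negative for the knockout in left and 12 in right lungs, with medians of -0.27 and -0.23 against 0.00 over all genes, but none passed. Epb41, a cytoskeletal protein that many cell types make, was at -0.02 (SE 0.07) on the left, and Tmcc2 at -0.24 (SE 0.09, adjusted p = 0.341). The 8 haem synthesis and iron genes had medians of 0.04 and 0.00. Alad, the enzyme after Alas2 in the pathway, was at 0.04 (SE 0.22) on the left and -0.11 (SE 0.22) on the right, and Urod at -0.04 (SE 0.07) and -0.10 (SE 0.07).

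Among 8 other erythroid regulators, Lmo2, a bridging protein of Gata1 complexes that endothelium also expresses, was at -0.20 (SE 0.08, adjusted p = 0.331) on the left and -0.24 (SE 0.08, 0.162) on the right, and Foxo3 at 0.07 (SE 0.06) and 0.14 (SE 0.06). Of 7 metabolism and maturation genes, Prdx2, a peroxidase abundant in red cells, was at -0.14 (SE 0.06, adjusted p = 0.459) and -0.15 (SE 0.06, 0.303), and Car2 at 0.21 (SE 0.16) and 0.14 (SE 0.16). Hbb-bh0, another gene of the locus, was at -0.13 (SE 0.27) and 0.23 (SE 0.29).

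The wider set was also read between sides. With pairs as blocks, 1 of the 37 genes was called in wild type, none in the knockout (4 at an unadjusted p under 0.05) and 2 over both genotypes. Among all genes, 0.273%, 0.263% and 0.662% were called higher on the left in these fits. Tent5c, a poly(A) polymerase, read 33.1, 33.1 and 36.2 CPM in left and 22.3, 26.4 and 27.7 CPM in right wild-type libraries, with a log2 fold change of 0.42 (SE 0.09, adjusted p = 0.0225). Tmcc2, a membrane protein of the endoplasmic reticulum, rose by 0.19 over both genotypes (SE 0.04, adjusted p = 0.0126). Hbb-bh0 had the larger fold change (0.71 in wild type, SE 0.23, adjusted p = 0.292) from 1.91 to 4.44 CPM, and did not pass. The median over the 37 genes was 0.05 in wild type and 0.06 in the knockout, against 0.00 over all genes. The lists differed. Red cell membrane and surface genes had medians of 0.24 in wild type (9 of 13 positive) and 0.12 in the knockout (7 of 13), with none called. The medians were 0.03 and 0.08 for haem synthesis and iron and 0.02 and 0.06 for regulators. For metabolism and maturation they were 0.03 and 0.05. The 8 globin and erythroid genes had medians of 0.47 and 0.26, and the difference between both sets was not tested.

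Other cells of blood and lung were followed through marker lists. Of 9 platelet and megakaryocyte genes, all 9 were higher on the left over both genotypes with pairs, with Ppbp (0.58, SE 0.12, adjusted p = 0.00736) and Mmrn1 (0.21, SE 0.04, 0.0022, also made by endothelium) passing. Their summed level was 230.3 to 260.1 CPM in wild-type left, 182 to 214 in wild-type right, 175 to 196 in knockout left and 148 to 178 CPM in knockout right libraries. Between genotypes this list went down in the knockout in 9 of 9 genes on each side, with Pf4 (-0.95, SE 0.17, adjusted p = 0.0138), Ppbp (-1.53, SE 0.34, 0.043) and Tubb1 (-1.20, SE 0.23, 0.0177) called on the left and Ppbp on the right, while the 4 globins were not called. Of 11 myeloid genes, all 11 were lower in the knockout on each side, with Laptm5 called on both, Mrc1 on the left and C1qb on the right, and none was called between sides with pairs. Endothelial markers had medians of 0.04 and 0.03 between genotypes, with none called, and of 0.01 between wild-type sides. Sox18, also an endothelial gene, was 0.20 higher on the left over both genotypes with pairs (SE 0.04, adjusted p = 0.014). What these lists contribute to the globin differences was not tested.

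Hepatocyte markers were low in all but knockout left library 1. Fabp1 was at 0 counts in all 12 libraries, which allows up to 3 counts in each, and the summed list reached 90.5 CPM in that library against 5.19 to 10.3 CPM in the others. Between knockout sides with pairs Alb (3.61, SE 0.44, adjusted p = 8.45e-05) and Afp (1.87, SE 0.30, 0.00353) were called higher on the left. Hbb-bh1 was as high in the right library of that number, at 118 CPM, where Alb stood at 1.27 CPM. Among wild-type libraries Alb stood at 0.192 to 0.842 CPM in left and 0.0933 to 0.861 CPM in right lungs. The part of these markers in the globin levels was not tested. The markers of lung epithelium and mesenchyme, summed over 10 genes, stood highest in the knockout libraries numbered 2 (1772 CPM on the left and 1812 CPM on the right) and at 1550 to 1682 CPM in the other 10 libraries. The knockout libraries numbered 2 were also those with the highest adult share of beta-globin counts, and the part of these markers in that share was not tested.

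The genes whose levels across the 12 libraries were most like the mean standardised level of the 8 genes were 5930403N24Rik (Pearson r = 0.86), Cyp2u1, Sv2b, Zfp185, Pfn2 (0.84 each), March9 (0.83), Snrpd2 and Polb (0.82 each), out of 9067 genes with at least 1 CPM. None of them belongs to the erythroid lists. The erythroid gene most like the mean was Hbb-bh0, at r = 0.71 and rank 48. The 8 genes did not all move together, so their mean is not a single erythroid level. Over the 12 libraries, Hbb-bh1 and Hbb-bs correlated at r = -0.42, and Hbb-y and Alas2 at 0.91. The 12 libraries share scaling and come in pairs, so the values given here describe likeness only.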

How the data were processed

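The authors deposited raw counts of reads per gene. The submitters' processing notes list FastQC, HISAT2, featureCounts and GRCm38, without versions or a strand setting. Only chromosomes 1 to 7, 10, X and part of 8 were used, and 1 incomplete row was left out, so the totals are part of each library's depth. Symbols matched 99.5% of identifiers. Genes passing filterByExpr (minimum count 10, total 15) were tested with edgeR 4.0.16 in R 4.3.3, with TMM factors of 0.992 to 1.01, 4 groups and 8 residual degrees of freedom. The fit with pairs as blocks had only 4 residual degrees of freedom. Summed sides were fitted separately over 10203 genes. DESeq2 1.42.0 and limma 3.58.1 were alternatives, and the procedure was tested on simulated data. CPM values are relative to the TMM-scaled total of tested genes.

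Pairing was checked before calls were compared. Within a genotype, left and right libraries sharing a number deviated together from their group means (r = 0.253 to 0.486 in 6 pairs). Values for unlike numbers were -0.393 to -0.00284, and for equal numbers of the other genotype -0.103 to -0.0423. Removing the group means itself pushes unlike numbers below 0 when equal numbers are positive. Their negative values are thus no separate support. From the positive values within a genotype, numbers were taken to pair sides there, and not to pair genotypes. No replicate was a duplicate (chi-square over degrees of freedom 4.34 to 12.8).

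The genes, lists and tests were chosen with earlier results of these data known. All 8 genes were named. Of each other erythroid list the rule took up to 3 called genes or, with none called, the 2 most abundant per kilobase. Of lists of other cells it took the most abundant and up to 3 called genes. That rule was not followed in full. Eng, the most abundant endothelial gene, and the progenitor and mast cell genes are not named, and Foxa2 was named outside the rule. Epb42, Fabp1 and the ratios of Hbb-bs were chosen after their values were seen.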

Additional observations from a re-analysis of the deposited data

How the results depend on the processing

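Of the 8 genes, the number called stayed at 0 for knockout against wild type in left, right and summed lungs with RLE size factors and with DESeq2. Without the low-count filter it was 1 in left and 4 in right lungs, among 510 and 595 genes called. More genes than the 9519 of the main fits were tested there. Shares of all genes are not given for that setting, so its counts are not set against a background. Fitting only the groups compared gave 49 genes in left lungs. DESeq2 called 193 genes in left, 224 in right and 304 in summed lungs. With the replicate number as a replicate block across genotypes, which the numbers were not found to pair, 177 genes passed in left and 48 in summed lungs, and 1 of the 8 genes, Hbb-y, in right lungs (adjusted p = 0.0161). Over 12 libraries as independent 543 genes passed in the mean of both sides, and with limma-voom 344. Klf1 in summed lungs turned from 0.04 to -0.016 with the replicate block, to -0.000476 over 12 libraries and to -0.094 with limma-voom. The cause of these changes was not tested.

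Between wild-type sides, 1 of the 8 genes and 8 genes in all passed with only those groups in the fit, 5 and 46 without the filter, 1 and 11 with DESeq2, 1 and 13 with limma-voom, and 5 and 63 with the replicate block. Between knockout sides none of the 8 passed without the filter, with DESeq2 or with limma-voom, among 31, 4 and 2 genes, and 1 of 43 passed with the replicate block. The interaction gave 6 genes without the filter and 2 with the replicate block, none of the 8. The replicate block with RLE size factors gave 5 of 63 genes in wild type and 1 of 43 in the knockout. Scaled without erythroid genes it gave 5 of 64 and 1 of 43, and without the filter 5 of 106 and 2 of 98. The blocked fit over both genotypes gave 224 genes without the filter. As above, counts without the filter are not set against a background. These blocked settings and the fit over both genotypes were added after seeing the data.

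Leaving out 1 replicate at a time, 45 to 85 genes passed for knockout against wild type in left lungs, 68 to 124 in right and 29 to 167 in summed lungs, with 0 of the 8 genes. For wild-type sides, with and without the block, 0 to 5 of the 8 genes and 1 to 41 genes passed, for knockout sides 0 to 2 and 0 to 30, and over both genotypes 5 and 83 to 120. In the blocked fit these were 3 of 33, 4 of 25 and 5 of 41 genes without wild-type pairs 1, 2 and 3, and 2 of 30, 0 of 21 and 0 of 12 without knockout pairs 1, 2 and 3. Signs turned for several genes whose log2 fold changes ranged across 0. In left lungs these were Hbb-y (-0.12 to 0.064), Hbb-bh1 (-0.17 to 0.49), Hbb-bs (-0.17 to 0.54), Hbb-bt (-0.33 to 0.31), Alas2 (-0.11 to 0.11), Klf1 (-0.025 to 0.46) and Hemgn (-1.13 to 0.48). In right lungs they were Hbb-bh1 (-0.025 to 0.96), Hbb-bs (-0.032 to 0.69), Hbb-bt (-0.037 to 0.46) and Hemgn (-1.22 to 0.40). In summed lungs they were Hbb-bh1 (-0.11 to 0.69), Hbb-bs (-0.11 to 0.60), Hbb-bt (-0.20 to 0.37), Klf1 (-0.38 to 0.25) and Hemgn (-1.18 to 0.30). Between wild-type sides, without the block, they were Klf1 (-0.073 to 0.20) and Hemgn (-0.13 to 0.895, and 1.17 with the replicate block without wild-type pair 1). Between knockout sides they were Hbb-bh1 (-0.18 to 0.86), Hbb-bs (-0.19 to 0.74), Hbb-bt (-0.19 to 0.55) and Hemgn (-0.55 to 1.57, and -0.052 with the replicate block without knockout pair 3). The turns of the 3 globins there came from leaving out 1 library of a pair in the fit without the block. Without whole knockout pairs the blocked fit gave 0.082 to 0.47 for Hbb-bh1, 0.20 to 0.31 for Hbb-bs and 0.14 to 0.27 for Hbb-bt. For the interaction they were Hbb-bh1 (-0.81 to 0.23), Hbb-bs (-0.62 to 0.31), Hbb-bt (-0.62 to 0.12), Gata1 (-0.63 to 0.13) and Hemgn (-1.12 to 0.99). The adult share of beta-globin counts differed between genotypes by -0.733 to 3.38 percentage points in left, -1.76 to 2.65 in right and -1.19 to 3.06 in summed lungs, and between sides by -1.04 to 0.179 in wild type and -1.73 to 2.81 in the knockout. In every setting run, Hbb-y and Alas2 kept their sign between sides and in right and summed lungs.

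With 2 to 49 counts per library, Gata1, Klf1 and Hemgn had standard errors of up to 0.80 on the log2 scale between genotypes, and small differences in them were not detectable. The counts used cover part of the genome, which leaves the alpha-globin genes and Ahsp out.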
